A study of Rattus norvegicus with 5 samples.

Results

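The amino acid transporter families read here are the probe sets whose single gene symbol begins with Slc1a, Slc3a, Slc6a, Slc7a, Slc36a, Slc38a or Slc43a and goes on with a number. The platform annotation gave 61 such probe sets, each for a different gene, among 18511 probe sets with exactly 1 symbol and 36685 on the array. They fell into Slc1 (7), Slc3 (2), Slc6 (17), Slc7 (17), Slc36 (4), Slc38 (11) and Slc43 (3). A log2 signal of 5 in at least 1 array, the minimum that the study used, was reached by 10 of the 61, and the other 51 stayed under it in every array.

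RNA came from whole lenses of 6-week-old male Sprague Dawley rats, cultured outside the body in serum-free medium with albumin, and was hybridized to 5 arrays, 1 per condition. The conditions were normal medium for 4 days (Control), 1 mM MMS, which alkylates DNA bases, for 2 or 4 days, and 800 μg/mL Bleomycin, which binds a metal ion and cuts DNA strands by way of reactive oxygen, for 2 or 6 days. Medium and drug were renewed every day. The study asked which genes differ between lenses with these DNA damage inducers and the Control. With 1 array per condition no difference has a replicate check, no test was possible and no p-value is given, and a call here is only a difference of at least 2-fold (1 or more on the log2 scale). Of the treated lenses, those of MMS Day 4 alone were cultured as long as the Control, so in the other 3 a drug effect and a culture time effect cannot be told apart. All 4 comparisons with the Control share the same Control array, so a gene high on that array would be lower in all 4 together.

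The lens has no blood vessels, and its cells take up amino acids from the aqueous and vitreous humors through carriers in the membranes of the anterior epithelium and the fiber cells. The amino acids serve the synthesis of crystallins and of glutathione, the main antioxidant of the lens, and the amino sulfonic acid taurine is held in lens cells as an osmolyte. Several members of Slc7 that exchange large neutral amino acids or cystine work as light chains bound to the heavy chain Slc3a2. The cationic amino acid carriers of Slc7 work alone, and Slc38 and many Slc6 members draw on the sodium gradient to accumulate their substrates.

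The array medians lay between 2.84 and 3.02, and the number of named probe sets at 5 or more was 3958 in the Control and 2860 to 3419 in the treated arrays. Of the lens fiber genes on the list used here, 14 of 14 reached 5, as did 10 of 10 crystallins. Of the probe sets for markers of glia, blood, macrophages and endothelium, 0 of 6, 0 of 1, 0 of 8 and 0 of 4 did. For the ciliary body and iris, retina and neuron, and proliferation lists it was 2 of 12, 2 of 12 and 2 of 14. Among these, Des of the ciliary body and iris list reached 5 in the Control alone (5.59), and Rbfox3, Tubb3 and Tyms in treated arrays alone. Of 22 lens epithelial genes, 17 reached 5 in the Control, 14 and 8 with MMS (Day 2 and Day 4) and 11 and 8 with Bleomycin (Day 2 and Day 6), and their median signals in this order of arrays, which is used throughout, were 6.52, 5.38, 4.57, 5.03 and 4.51. In bulk RNA, fewer cells of a type and less RNA per cell cannot be told apart.

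Slc7a8, Slc6a6, Slc38a2 and Slc7a2 were each at least 2-fold lower than the Control in all 4 treated arrays, which 4 of the 10 members at 5 or more (40.0%) and 6.4% of all 4327 named probe sets at 5 or more were. The heavy chain Slc3a2, the light chain Slc7a5 and Slc7a6os stayed within 2-fold of the Control in all 4 arrays, as did 67.3% of the 4327. The creatine carrier Slc6a8 was the one of the 10 that was at least 2-fold higher than the Control in any of them. Slc6a6 passed the minimum through the Control alone, and Slc6a8 through treated arrays alone.

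**Figure D1:**
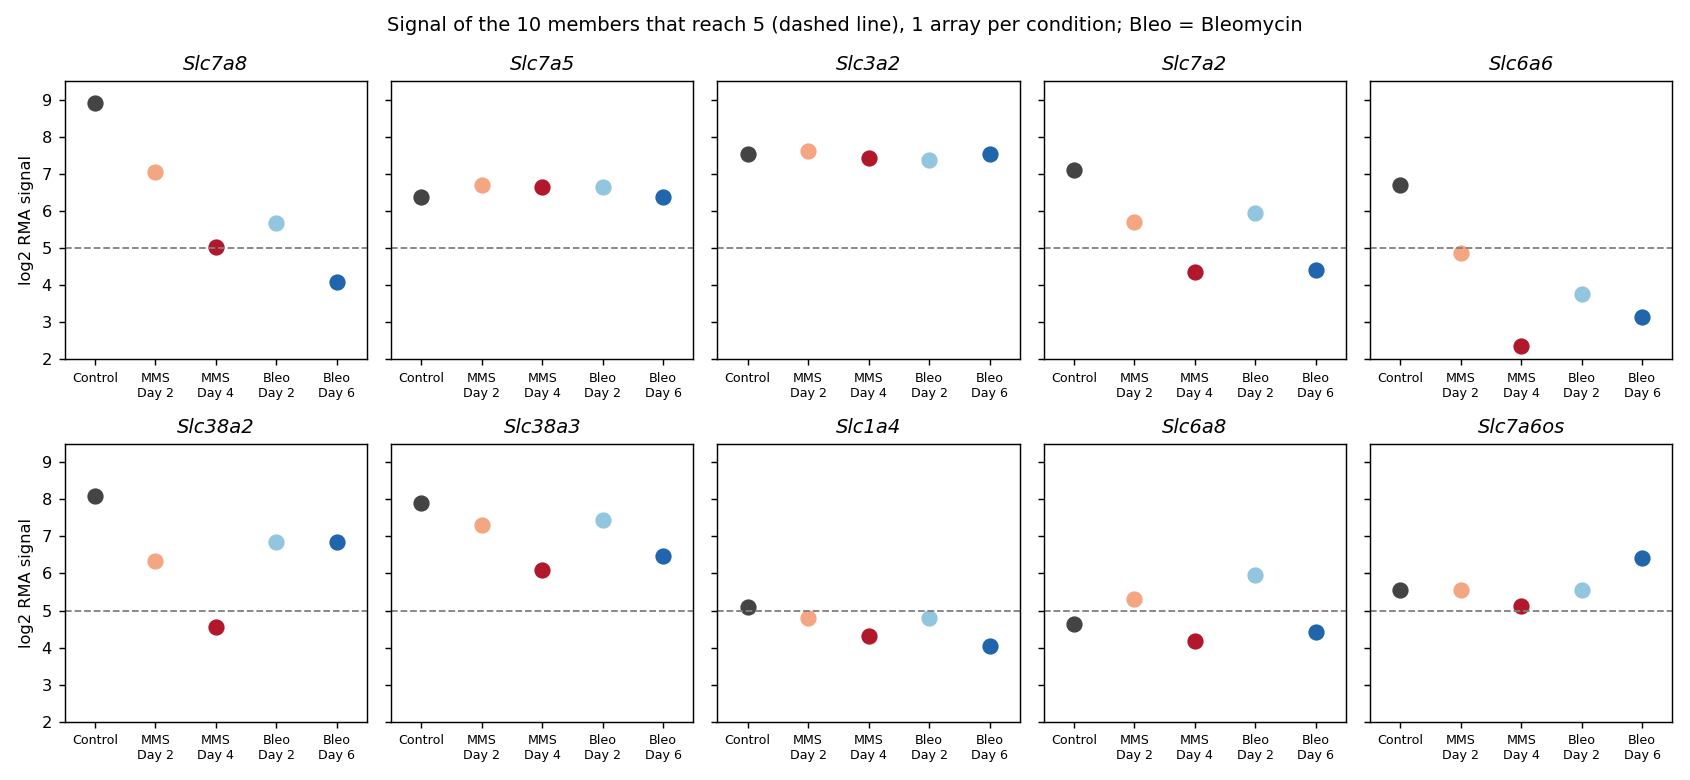
Log2 RMA signal (vertical axis) of each of the 10 members in the 5 arrays (horizontal axis, 1 point per array), with the minimum of 5 as a dashed line. Slc7a8 goes from 8.90 in the Control to 4.09 in Bleomycin Day 6, while the points of Slc3a2 lie between 7.37 and 7.61.

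Promoters are shown for the 3 carriers with an entry that were lower in all 4 treated arrays, and for Slc1a4. Slc1a4 was at least 2-fold lower in Bleomycin Day 6 alone. They were chosen because they hold matches to short motifs of factors known to act on amino acid or osmolyte carrier genes. The matches shown therefore follow from this choice. Each promoter is 300 bases that end 50 bases after the gene start, from RefSeq on the GRCr8 build, written 5′ to 3′ on the strand of the gene. Capitals mark matches on either strand to TGATGNAA, a form of the amino acid response element bound by Atf4 with a C/EBP partner, to TGACNNNGC, the letters of an Nrf2 antioxidant response element, or to TGGAAA, the core of the site of the osmotic factor Nfat5. Matches did not overlap, and TGGAAA was added after the values were seen.
Slc7a8 promoter, chr15:32212666-32212965, minus strand: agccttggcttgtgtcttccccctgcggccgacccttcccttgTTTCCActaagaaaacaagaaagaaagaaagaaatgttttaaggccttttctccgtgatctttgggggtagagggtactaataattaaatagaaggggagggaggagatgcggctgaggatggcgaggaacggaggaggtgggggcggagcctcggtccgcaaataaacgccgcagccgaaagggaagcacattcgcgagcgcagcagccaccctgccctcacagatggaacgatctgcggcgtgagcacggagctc
Slc6a6 promoter, chr4:125752252-125752551, plus strand: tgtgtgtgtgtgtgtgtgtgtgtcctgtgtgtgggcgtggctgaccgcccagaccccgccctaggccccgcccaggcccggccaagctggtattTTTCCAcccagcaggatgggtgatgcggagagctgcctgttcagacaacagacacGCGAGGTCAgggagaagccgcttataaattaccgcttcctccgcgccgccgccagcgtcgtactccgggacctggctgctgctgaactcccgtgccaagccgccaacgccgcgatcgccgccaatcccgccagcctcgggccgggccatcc
Slc38a2 promoter, chr7:129742570-129742869, minus strand: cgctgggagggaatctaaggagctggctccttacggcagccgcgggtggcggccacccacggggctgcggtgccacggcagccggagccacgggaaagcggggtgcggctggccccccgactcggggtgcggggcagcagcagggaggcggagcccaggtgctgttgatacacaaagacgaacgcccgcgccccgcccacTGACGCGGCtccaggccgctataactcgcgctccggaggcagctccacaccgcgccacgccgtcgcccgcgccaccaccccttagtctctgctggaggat
Slc1a4 promoter, chr14:98761513-98761812, minus strand: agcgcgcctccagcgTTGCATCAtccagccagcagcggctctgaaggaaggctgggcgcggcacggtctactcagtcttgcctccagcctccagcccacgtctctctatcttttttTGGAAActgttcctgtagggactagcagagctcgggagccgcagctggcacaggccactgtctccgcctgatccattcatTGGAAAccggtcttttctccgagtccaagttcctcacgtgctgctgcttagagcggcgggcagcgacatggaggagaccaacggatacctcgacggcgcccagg
Slc7a8 held TGGAAA on the reverse strand 207 bases before the start, and Slc6a6 held it on the reverse strand 156 bases before the start and TGACNNNGC on the reverse strand 101 bases before it. Slc38a2 held TGACNNNGC 50 bases before the start. Slc1a4 held TGATGNAA on the reverse strand 235 bases before the start and TGGAAA 134 and 54 bases before it. The promoter table had entries for 46 of the 61 members and 8 of the 10 at 5 or more. Among these 8, 1 held TGATGNAA, 2 held TGACNNNGC and 3 held TGGAAA, and among all 46 members with an entry 3, 8 and 10 did. Among all 33469 promoters of the same length, 3.98%, 12.1% and 22.7% did. A match describes letters in this window and is not a binding site.

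Slc7a8 encodes LAT2, a light chain that exchanges large and small neutral amino acids across the membrane. Its signal was 8.90 in the Control, 7.05 and 5.03 with MMS (Day 2 and Day 4) and 5.67 and 4.09 with Bleomycin (Day 2 and Day 6). Every treated array lay below the Control, and for each drug the later day lay below the earlier one. The differences from the Control were -1.84, -3.86, -3.23 and -4.81, and the last was the farthest below the Control of any member in any array.

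Slc7a5 encodes LAT1, the light chain for large neutral amino acids such as leucine, and Slc3a2 encodes the heavy chain that takes both light chains to the membrane. Slc7a5 had signals of 6.38, 6.69, 6.64, 6.65 and 6.37, and Slc3a2 had 7.52, 7.61, 7.41, 7.37 and 7.52. Neither moved by as much as 2-fold. For Slc7a5 the differences from the Control were 0.31, 0.26, 0.27 and -0.01, with a sign that changed with the scaling of the arrays in MMS Day 4 and Bleomycin Day 6. For Slc3a2 they were 0.09, -0.11, -0.15 and 0.00, with a sign that changed with the scaling in all 4. Read within each array, where a shift of the whole array cancels, the difference of Slc7a8 from the Control minus that of Slc7a5 was -2.15, -4.12, -3.50 and -4.79, and minus that of Slc3a2 it was -1.94, -3.76, -3.08 and -4.81. The difference of Slc7a5 minus that of Slc3a2 was 0.22, 0.37, 0.42 and -0.01. The LAT2 light chain was thus lower by far more than the heavy chain in each treated array, and the LAT1 light chain stayed within 2-fold of it.

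The medians of the epithelial markers lay below the Control, as Slc7a8 did. Of the 17 lens epithelial genes that reached 5, 9, 14, 9 and 14 were at least 2-fold lower, with medians of -1.0, -1.68, -1.06 and -1.83. Of all 4327 named probe sets at 5 or more, 9.29%, 26.2%, 9.17% and 18.9% were lower, with medians of -0.13, -0.44, -0.13 and -0.27. Of the 17, 2 (Efnb2 and Foxe3) reached 5 in the Control alone and were at least 2-fold lower in all 4 treated arrays. The minimum itself favored these 2, so the counts describe the genes that passed. E-cadherin (Cdh1), an adhesion protein of epithelial cells, differed from the Control by -1.86, -3.22, -3.19 and -3.86, and the glucose carrier Slc2a1 by -1.53, -4.10, -3.00 and -3.31. Cdh1 and Slc2a1 were among the largest differences of the list. Others at 5 or more stayed within 2-fold, such as Cryab (0.00, -0.03, 0.00 and -0.01) and Pitx3 (-0.25, -0.16, -0.59 and -0.48). Keratin 8 (Krt8), on the same list but under 5 in every array, differed the other way, by 0.53, 2.15, 1.27 and 1.27. Fiber genes differed less, with 0, 1, 0 and 2 of 14 at least 2-fold lower and medians of 0.06, -0.15, 0.10 and -0.05, and the crystallins had medians of 0.16, 0.19, 0.22 and 0.17 with 1, 2, 1 and 1 of 10 at least 2-fold higher. The part of the epithelial markers in the results for the carriers was not tested.

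Slc6a6 encodes TauT, which carries taurine into cells with sodium and chloride. Its signal was 6.69 in the Control, 4.86 and 2.36 with MMS (Day 2 and Day 4) and 3.76 and 3.13 with Bleomycin (Day 2 and Day 6). It reached 5 in the Control alone, so it passed the minimum only through the array in which it was high. The differences were -1.82, -4.33, -2.92 and -3.56. The MMS Day 4 signal lay under the median of that array (3.02), so the size of that difference is not exact and no fold is given. Csad, which makes the precursor of taurine from cysteine sulfinic acid, differed by -1.13, -1.02, -1.02 and -1.02. Csad too reached 5 in the Control alone, and it held the same value in MMS Day 4 and both Bleomycin arrays. With median centring each of its differences is under 2-fold.

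Taurine carriage is known to be induced by hypertonic medium through Nfat5, and so are the myo-inositol carrier Slc5a3 and aldose reductase (Akr1b1), which makes sorbitol. Of 6 genes on a list of osmolyte and water transport genes that reached 5, Slc6a6 and Slc38a2 not counted, 3, 5, 3 and 4 were at least 2-fold lower, with medians of -1.09, -1.73, -1.27 and -1.58. Of these 6, 4 (Slc5a3, Nfat5, Sgk1 and Slc12a2) reached 5 in the Control alone, so the minimum itself favored genes high in the Control, and the counts and medians are no support for a lower level of the group. Slc5a3 differed from the Control by -2.47, -3.35, -3.63 and -3.62, and Nfat5 itself by -1.87, -2.42, -2.05 and -3.45. The treated signals of Slc5a3 (2.76, 1.88, 1.60 and 1.61) and that of Nfat5 in Bleomycin Day 6 (2.52) lay under the medians of their arrays. The sizes of those differences are therefore not exact. The water channel Aqp1 differed by -0.87, -1.99, -1.97 and -1.78, the ion carrier Slc12a2 by -0.76, -1.47, -0.57 and -1.39, and the kinase Sgk1 by -1.32, -1.10, -0.49 and -0.49. Akr1b1 stayed within 2-fold, at 0.35, -0.25, 0.09 and -0.59. The osmolality of the medium was not measured in these data, and the medians of the epithelial markers given for Slc7a8 lay below the Control too.

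**Figure D2:**
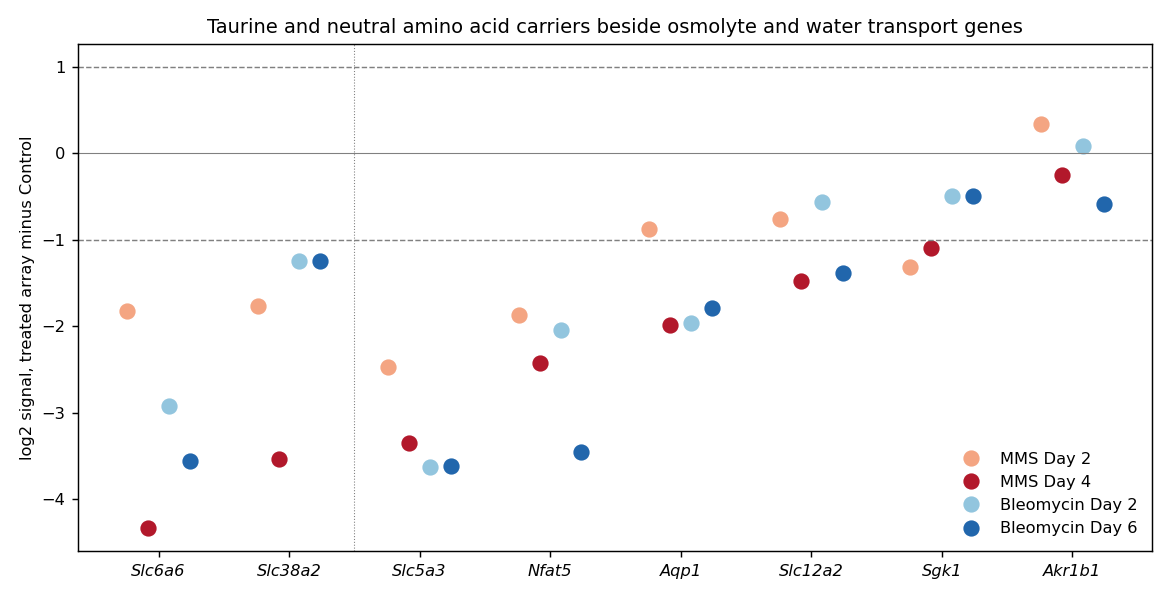
Difference from the Control in log2 signal (vertical axis) in the 4 treated arrays (colored points) for Slc6a6 and Slc38a2, left of the dotted line, and 6 osmolyte and water transport genes, with dashed lines at 2-fold. Slc5a3, with treated signals under the array medians, lies between -2.47 and -3.63, and Akr1b1 between -0.59 and 0.35.

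Slc38a2 encodes SNAT2, a sodium-coupled carrier of alanine, glutamine and other small neutral amino acids. Its signal was 8.10 in the Control, 6.33 and 4.56 with MMS (Day 2 and Day 4), and 6.85 in both Bleomycin arrays. The MMS Day 4 array was the lowest, and Bleomycin Day 2 and Day 6 held exactly the same value. Such equal values in at least 2 arrays occurred in 4 of the 10 members, so this one is no measure of stability over time. The differences from the Control were -1.77, -3.53, -1.25 and -1.25, or 11.6-fold lower in MMS Day 4. With the arrays centred on their medians the Bleomycin differences were -0.96 and -0.79, both under 2-fold, and with quantile normalization they were -1.13 and -0.95.

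Slc38a3 encodes SNAT3, which carries glutamine, histidine and asparagine with sodium in exchange for protons. Its signals were 7.90, 7.30, 6.09, 7.45 and 6.47, with the later day of each drug lower than the earlier one. The differences from the Control were -0.59, -1.80, -0.44 and -1.42, at least 2-fold on the later days only. With median centring the last of these was -0.96, under 2-fold. In RefSeq order Slc38a1, Slc38a2 and Slc38a4 are consecutive protein-coding genes on chromosome 7. As deposited, all 3 lay below the Control in all 4 treated arrays. Of all 4327 named probe sets at 5 or more, 51.3% had their highest value in the Control. The share among those under 5 was not counted, so the direction is not a trait of this locus. Slc38a4, a neutral amino acid carrier that stayed under 5, had signals of 4.68, 3.12, 2.82, 3.12 and 3.12, and Slc38a1, a glutamine carrier also under 5, had 4.09, 3.62, 3.62, 3.01 and 3.62. The Slc38a1 difference in MMS Day 4 was -0.47, and median centring adds 0.63 to it, so its sign changes with the scaling.

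Slc7a2 encodes CAT2, a carrier of arginine, lysine and ornithine that needs no heavy chain. Its signals were 7.09 in the Control, 5.68 and 4.36 with MMS (Day 2 and Day 4) and 5.94 and 4.40 with Bleomycin (Day 2 and Day 6). Both drugs had the higher value on Day 2 and nearly the same lower value on the later day. The differences were -1.40, -2.73, -1.15 and -2.69. With the arrays centred on their medians the Bleomycin Day 2 difference was -0.87, and with quantile normalization it was -0.96, under 2-fold in both. The related carrier Slc7a1 (CAT1) stayed under 5, with 4.62, 3.89, 3.89, 3.93 and 3.83. Argininosuccinate synthase (Ass1), which serves arginine synthesis, differed by -0.38, -1.24, -0.75 and -1.68.

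Slc6a8 encodes the creatine carrier, which takes up creatine with sodium and chloride. Its signals were 4.63 in the Control, 5.32 and 4.17 with MMS (Day 2 and Day 4) and 5.96 and 4.42 with Bleomycin (Day 2 and Day 6). It passed the minimum through the 2 arrays of Day 2 alone. Both Day 2 arrays lay above the Control and both later arrays below it. The differences were 0.69, -0.46, 1.33 and -0.21, and with quantile normalization the first was 1.18, past 2-fold. The sign in MMS Day 4 and Bleomycin Day 6 changed with the scaling, from -0.83 to 0.44 and from -0.37 to 0.53. The difference of Slc6a8 minus that of Slc6a6, a member of the same family, was 2.52, 3.87, 4.26 and 3.35. Gamt, which makes creatine, differed by 0.00, 0.09, -0.12 and 0.00.

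Slc1a4 encodes ASCT1, an exchanger of alanine, serine and cysteine. Its signals were 5.09, 4.80, 4.33, 4.80 and 4.05, so it too reached 5 in the Control alone. The differences were -0.29, -0.77, -0.29 and -1.04, of which only the last was at least 2-fold, and the sign in both Day 2 arrays changed with the scaling. With median centring the last was -0.58, under 2-fold, and with olfactory receptor centring the MMS Day 4 difference was -1.14, past 2-fold. Slc7a6os fits the naming rule but is not a carrier, and it takes its name from its place opposite Slc7a6. Its signals were 5.56, 5.56, 5.12, 5.56 and 6.41, which gave differences of 0.01, -0.43, 0.01 and 0.85, with a sign that changed with the scaling in all arrays but Bleomycin Day 6. There the difference was 1.31 with median centring and 1.26 with quantile normalization, past 2-fold.

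Counted together, the 10 members held 0 at least 2-fold higher and 4 lower in MMS Day 2, where 1.18% and 9.29% of the 4327 named probe sets at 5 or more were higher and lower. In MMS Day 4 they held 0 higher and 5 lower, against 1.27% and 26.2%. In Bleomycin Day 2 they held 1 higher and 4 lower, against 0.855% and 9.17%, and in Bleomycin Day 6 they held 0 higher and 6 lower, against 1.39% and 18.9%. With median centring, 2 members were lower on Bleomycin Day 2. For Bleomycin Day 6, median centring gave 1 higher and 3 lower, and quantile normalization 1 higher and 4 lower. The 4 carriers lower in all arrays were joined by Slc38a3 on the later day of each drug and by Slc1a4 in Bleomycin Day 6. The medians of the 10 differences were -0.44, -1.28, -0.37 and -1.14, and those of all 4327 probe sets were -0.13, -0.44, -0.13 and -0.27. Since 2 of the 10 passed the minimum through the Control alone and 1 through treated arrays alone, these counts describe the members that passed and are no support for a trend of the families.

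**Figure D3:**
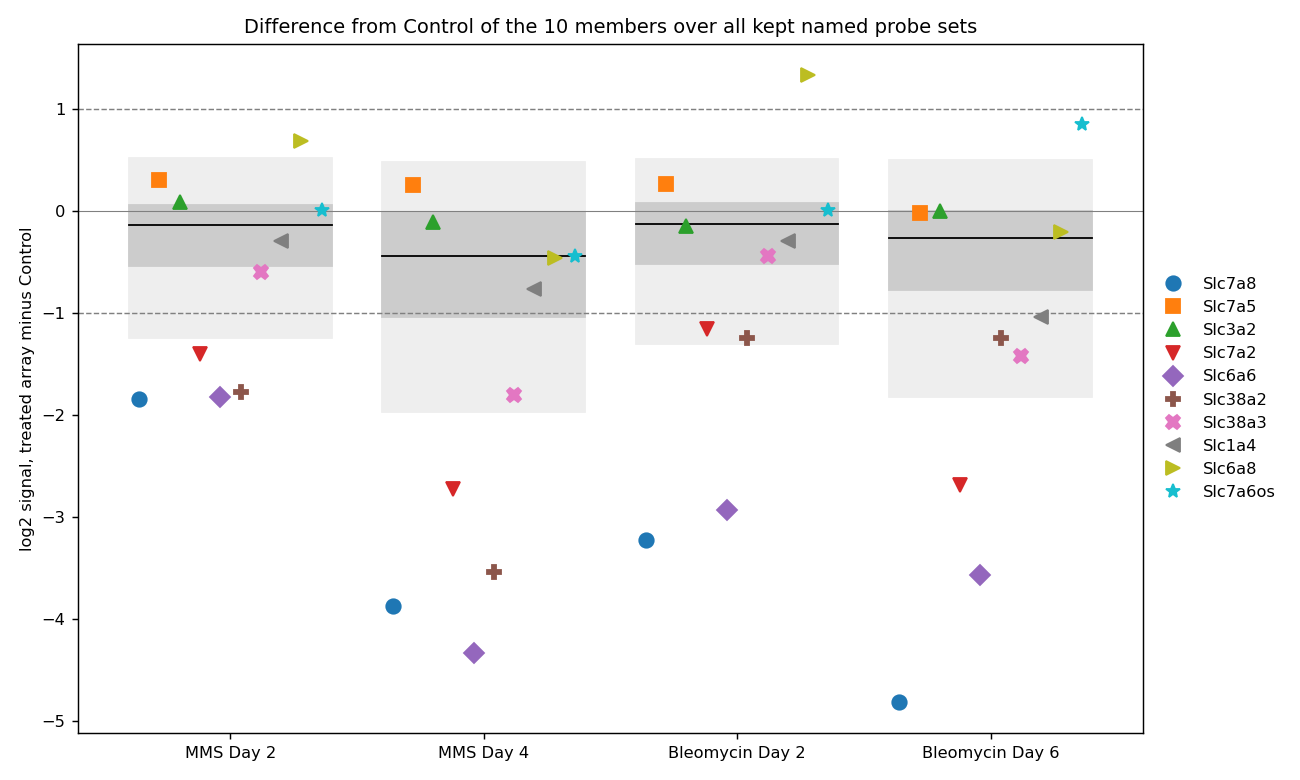
Difference from the Control in log2 signal (vertical axis) of the 10 members (symbols) in each treated array (horizontal axis), over the middle 50% (dark gray), the span from the 5th to the 95th percentile (light gray) and the median (black line) of the 4327 named probe sets at 5 or more. Slc7a8 and Slc6a6 lie under the light gray span in each array, and Slc3a2 and Slc7a5 lie within it.

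Between the drugs on Day 2, 2 of the 10 members were at least 2-fold higher in MMS than in Bleomycin, Slc7a8 by 1.38 and Slc6a6 by 1.10, and 0 were lower, where 1.41% and 0.508% of all 4327 probe sets were higher and lower. Slc6a6 was under 5 in both of these arrays. On the last day of each drug, which differ in culture time, 0 members were at least 2-fold higher with MMS than with Bleomycin, and 2 were lower, Slc38a2 (-2.29) and Slc7a6os (-1.29), against 0.948% and 4.21% of all probe sets. Slc7a2 had about the same signal under either drug, with differences of -0.25 on Day 2 and -0.04 on the last day, the second of which changed sign with the scaling.

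From Day 2 to Day 4 of MMS, 0 members were higher and 6 lower by at least 2-fold, against 0.208% and 7.74% of all probe sets. Slc6a6 differed by -2.51, Slc7a8 by -2.02, Slc38a2 by -1.77, Slc7a2 by -1.32, Slc38a3 by -1.21 and Slc6a8 by -1.15. With median centring and with quantile normalization 3 of the 6 were lower by 2-fold, since Slc7a2 (-0.97 and -0.93), Slc38a3 (-0.86 and -0.87) and Slc6a8 (-0.80 and -0.73) came under it. From Day 2 to Day 6 of Bleomycin, 0 were higher and 3 lower, against 0.532% and 4.07%, and these were Slc7a8 (-1.58), Slc6a8 (-1.54) and Slc7a2 (-1.54). Over the same days Slc6a6 differed by -0.64, and Slc38a2 held the same value in both arrays. With median centring and with quantile normalization Slc38a2 differed by 0.18. Slc6a8 passed the minimum through the 2 arrays of Day 2 alone, so its lower later values are no support for a fall with time. Slc6a6 passed it through the Control alone and was under 5 in both MMS arrays (4.86 and 2.36). The counts over time therefore describe the members that passed.

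The 51 members under 5 in every array had Control signals between 1.20 and 4.86 with a median of 2.76. In 42 of them (82.4%) at least 2 arrays held the same value, and in 5 (Slc1a2, Slc1a7, Slc38a6, Slc6a19 and Slc7a7) all 5 arrays did. These shares were not counted over all named probe sets under 5, so they are not a trait of these families. No Slc36 or Slc43 member, of 4 and 3, reached 5, and neither did 6 of 7 in Slc1, 1 of 2 in Slc3, 15 of 17 in Slc6, 13 of 17 in Slc7 and 9 of 11 in Slc38. They include the glutamate carriers Slc1a2 and Slc1a3, the noradrenaline, dopamine and serotonin carriers Slc6a2, Slc6a3 and Slc6a4, and the proton-coupled carrier Slc36a1. The members just inside the minimum were Slc1a4, with a highest signal of 5.09, and Slc6a8, with 5.96, and those just outside it were Slc7a11 (4.86), Slc38a4 (4.68) and Slc7a1 (4.62).

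**Figure D4:**
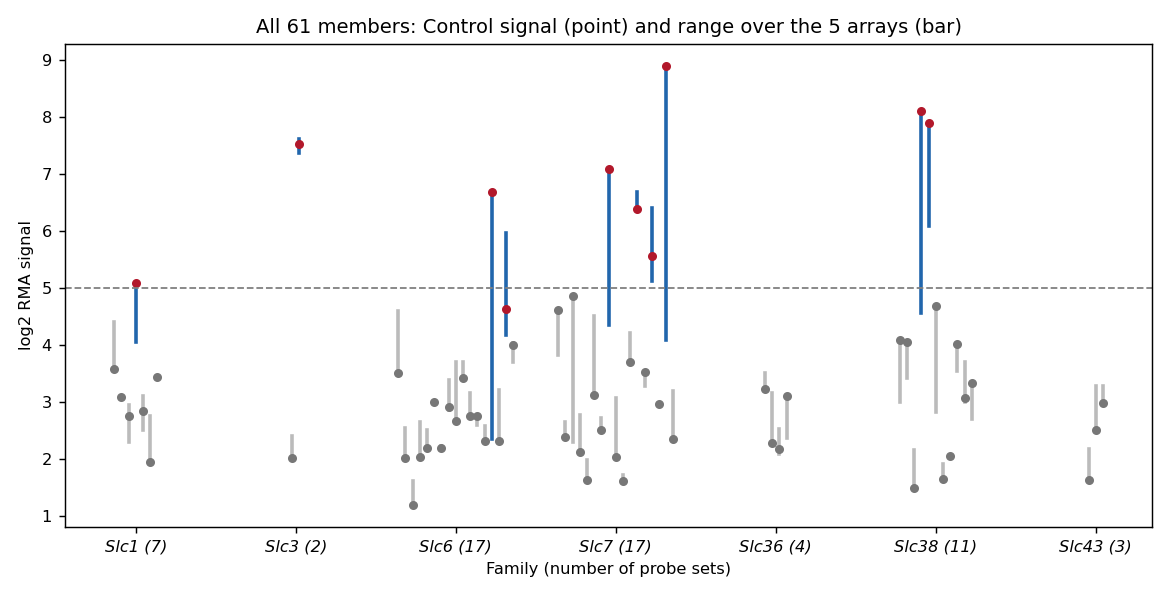
Log2 RMA signal (vertical axis) of the 61 members by family (horizontal axis), with a point for the Control and a bar from the lowest to the highest of the 5 arrays, in color for the 10 members that reach 5 (dashed line) and in gray for the other 51. Signals of different probe sets are not on a common scale, and the gray Control points lie between 1.20 and 4.86.

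Slc7a11 encodes xCT, which brings in cystine for glutathione synthesis in exchange for glutamate. Its signals were 4.86 in the Control, 3.99 and 3.08 with MMS (Day 2 and Day 4) and 2.92 and 2.31 with Bleomycin (Day 2 and Day 6). All treated arrays were lower than the Control, and 3 of 4 were lower by at least 2-fold, all at signals under the minimum. Of 4 genes of glutathione synthesis and breakdown that reached 5, 0 were at least 2-fold higher and 1, 2, 0 and 1 were lower, too few genes to set beside the shares over all probe sets. Gclm, a subunit of the enzyme of the first step, differed by -0.84, -1.18, -0.62 and -1.28, its partner Gclc by 0.34, 0.17, 0.39 and 0.24, and Chac1, which degrades glutathione, by -1.82, -1.97, -0.16 and -0.43.

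Of the 51 members under 5, 1 was at least 2-fold higher and 1 lower in MMS Day 2 (Slc7a3 and Slc38a4), where 0.637% and 0.989% of 14759 named probe sets under 5 were. In MMS Day 4, 2 were higher (Slc6a11 and Slc6a20b) and 2 lower (Slc38a4 and Slc7a11), against 2.83% and 2.71%. In Bleomycin Day 2, 0 were higher and 3 lower (Slc38a1, Slc38a4 and Slc7a11), against 0.644% and 1.29%, and in Bleomycin Day 6, 1 was higher (Slc7a14) and 2 lower (Slc38a4 and Slc7a11), against 1.79% and 2.26%. Of the 51, 44 stayed within 2-fold of the Control in all 4 arrays. The same share over the 14759 was not counted, so the 44 are not a trait of these families. Of the genes named here, Slc7a3, Slc6a11, Slc6a20b, Slc7a14 and Slc38a1 were named after their values were seen.

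Amino acid shortage is known to raise the transcription factor Atf4, whose targets include several carriers of these families. Of 10 members linked to Atf4 that the array reads, 4 reached 5 (Slc1a4, Slc38a2, Slc3a2 and Slc7a5), and of these 0 were at least 2-fold higher and 1, 1, 1 and 2 lower, against 9.29%, 26.2%, 9.17% and 18.9% of all 4327 probe sets. The lower member was Slc38a2, joined in Bleomycin Day 6 by Slc1a4, which passed the minimum through the Control alone. Atf4 itself differed by -0.01, -0.14, -0.06 and 0.35. Of 21 probe sets of Atf4 and its response genes at 5 or more, 1, 1, 0 and 0 were higher and 8, 8, 2 and 2 lower, with medians of -0.40, -0.74, -0.16 and -0.05, where all probe sets had -0.13, -0.44, -0.13 and -0.27. The 2 lower with Bleomycin were about the share over all probe sets on Day 2 and under it on Day 6. Vldlr, 1 of these 2 and also lower with MMS, passed the minimum through the Control alone. Atf3, the 1 higher with MMS, passed it through treated arrays alone. These counts therefore describe the genes that passed and are no support for a trend of the list. Asparagine synthetase (Asns) differed by -1.04, -2.21, -0.35 and -0.44, Trib3, a pseudokinase, by -1.85, -2.21, -0.30 and 0.44, and Psat1, of serine synthesis, by -1.35, -2.09, -1.54 and -2.64.

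Of 13 genes through which amino acids act on the growth kinase complex mTORC1 that reached 5, 0 were at least 2-fold higher and 0, 1, 0 and 1 lower. Of all 4327 named probe sets at 5 or more, 1.18%, 1.27%, 0.855% and 1.39% were higher and 9.29%, 26.2%, 9.17% and 18.9% lower. The medians of the 13 were 0.00, -0.04, 0.00 and 0.00, against -0.13, -0.44, -0.13 and -0.27. Tsc1, 1 of the 13, reached 5 in the Control alone. The lower gene was Sesn3, which restrains mTORC1, at -0.64, -1.48, -0.69 and -1.83. Of 10 genes of amino acid metabolism at 5 or more, 0 were higher and 1, 2, 1 and 2 lower, close to the shares over all probe sets, with medians of 0.00, -0.20, -0.04 and -0.05. The lower ones were Csad, which reached 5 in the Control alone, and Ass1. Of 17 amino acid carriers of other families, 3 reached 5, and of these 3, 0 differed by 2-fold, with medians of -0.04, -0.10, 0.20 and 0.16. These 3 are too few to set beside the shares over all probe sets, and Slc25a22 reached 5 through treatment alone. Among the 14 under 5, the peptide carrier Slc15a2, named after its values were seen, had 4.96 in the Control and differed by -1.62, -1.76, -1.63 and -1.63.

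The direction of the members was read again under other scalings. Centring each array on its median over the kept probe sets added 0.27, 0.63, 0.28 and 0.46 to every difference from the Control, and centring on 70 olfactory receptor probe sets, a gene family of the nasal epithelium, took away 0.13, 0.37, 0.16 and 0.16. Slc7a8, Slc6a6, Slc38a2, Slc7a2 and Slc38a3 lay below the Control in all 4 treated arrays as deposited, under both centrings and under quantile normalization.

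**Figure D5:**
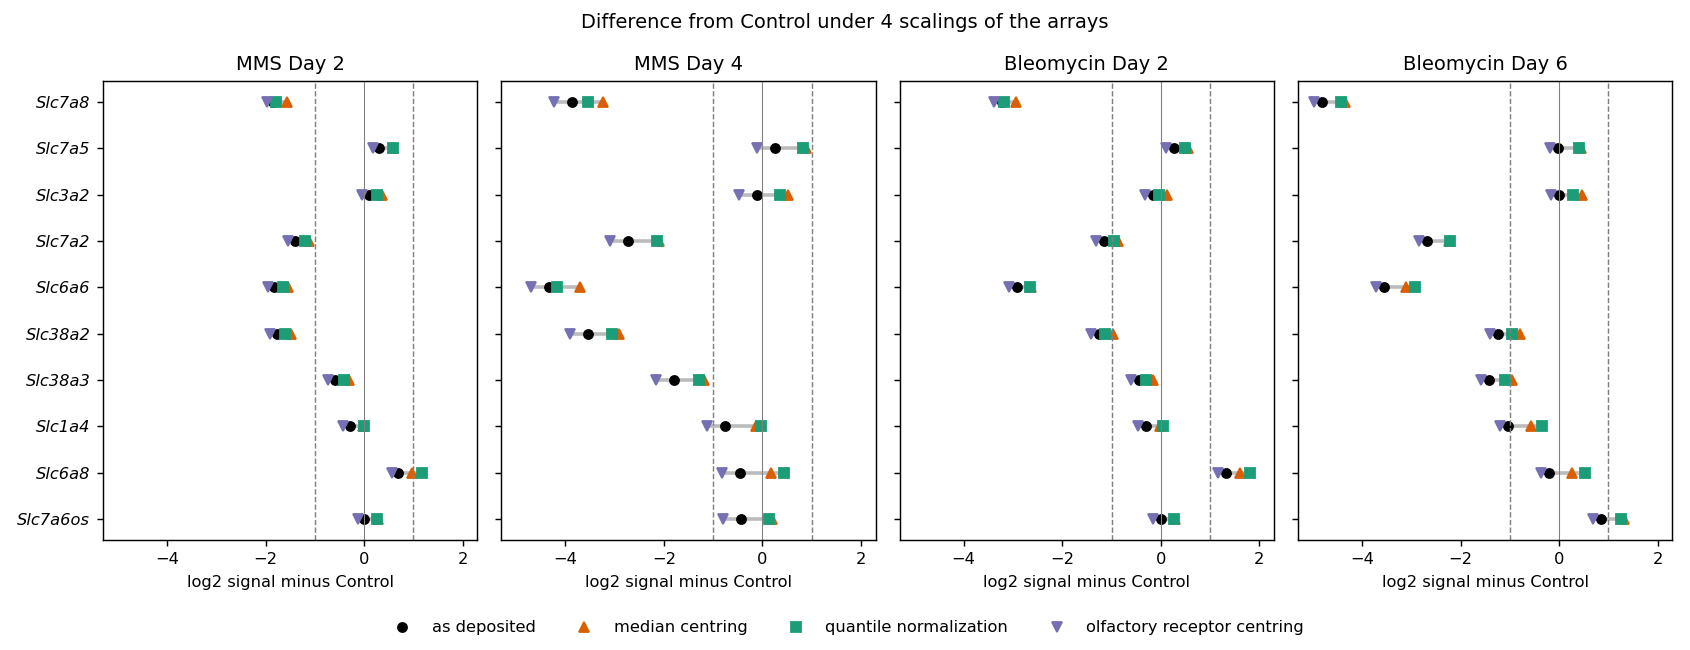
Difference from the Control in log2 signal (horizontal axis) of the 10 members (vertical axis) in the 4 treated arrays, as deposited, centred on the median, quantile normalized and centred on olfactory receptors, with the gray bar joining the lowest and highest of the 4 and dashed lines at 2-fold. Slc7a8 and Slc6a6 stay below -1 in every panel, and the bars of Slc3a2 cross 0.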

How the data were processed

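RNA of cultured rat lenses was read on 5 Rat Gene 2.0 ST arrays, 1 per condition. The deposited values are log2 signals that the authors put through RMA, a method that subtracts background, brings the arrays to a common scale and joins the probes of a set into 1 value, in R. They were used as deposited, with 36685 probe sets per array. For arrays without replicates, their number limits the precision, and no test was made.

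Symbols came from the platform annotation, and 61 of 61 members were found in the RefSeq table under the same symbol. Named probe sets with a signal of 5 or more in any array (4327) formed the background. Python 3.11.15, pandas 2.3.3 and numpy 2.4.6 gave the differences and counts, matplotlib 3.10.9 drew the figures, and the steps were tested on simulated data. All 10 members at 5 or more are named, with the 3 nearest below it and the best known members under it. The members and the gene lists were chosen with earlier results of these data known. Alternatives were no signal minimum, a minimum of 6, a 3-fold call, median, quantile and olfactory receptor scaling, and gene means. Whether lenses were pooled for an array is not given in the sources used here.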

Additional observations from a re-analysis of the deposited data

How the results depend on the processing

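Counts of the 10 members that moved by over 1.5 times were as follows, and the cause was not tested beyond what each setting does by construction. With no signal minimum, all 61 members counted, and against the Control 1 and 2 were higher with MMS (Day 2 and Day 4), 1 was higher on Bleomycin Day 6, and 7 were lower on Bleomycin Day 2. With a minimum of 6, which leaves out Slc6a8, 0 were higher in Bleomycin Day 2. With median centring, 2 were lower in Bleomycin Day 2, and 1 was higher and 3 lower in Bleomycin Day 6. With it, 1 was higher on the last day of MMS than on that of Bleomycin, 3 were lower on the later than on the earlier day of MMS, and 1 was higher on the later day of Bleomycin. With quantile normalization, 1 was higher than the Control in MMS Day 2 and 1 in Bleomycin Day 6, and 3 were lower on the later than on the earlier day of MMS. With a 3-fold call, 0 were higher and 2 lower than the Control in Bleomycin Day 2, and 3 were lower in Bleomycin Day 6. With it, 0 were higher in MMS than in Bleomycin on Day 2, 1 was lower on the last day of MMS than on that of Bleomycin, and 3 and 0 were lower on the later than on the earlier day of MMS and of Bleomycin. Of the 40 differences of single members from the Control, median centring moved 16, quantile normalization 10 and olfactory receptor centring 1. Averaging probe sets per gene moved 0 of them, since each member has 1 probe set. No paired analysis was possible because each condition has 1 array and the labels give no replicate numbers. Some of the lower signals lie near the array medians, and a difference there can be understated. Equal values in at least 2 arrays were not confined to low signals. They were held by 42 of the 51 members under 5 and by 4 of the 10 at 5 or more.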
